A study of Homo sapiens with 12 samples.

Results

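The genes described here are 9 regulators of the G1 phase of the cell cycle in HOS cells, a human osteosarcoma line, measured after raising or silencing the adaptor protein CIN85. They are the D cyclin genes CCND1 and CCND3, the kinase genes CDK4 and CDK6, the CDK inhibitor genes CDKN1A, CDKN1B and CDKN2C, the transcription factor gene MYC and the retinoblastoma gene RB1. Each was found by matching the Ensembl identifiers of the count table to these symbols in GENCODE, and all 9 were among the 25141 genes of the table. All 9 were also among the 12542 genes with enough counts to be tested.

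In G1, D cyclins bind CDK4 and CDK6, and the active kinases phosphorylate the RB1 protein. Phosphorylated RB1 releases the E2F transcription factors, which switch on genes for DNA replication. The protein of CDKN2C, p18, binds CDK4 and CDK6 and hinders cyclin D from activating them, whereas p21 and p27, from CDKN1A and CDKN1B, bind cyclin-CDK complexes and stop the kinases that drive entry into S phase. MYC drives genes of growth and ribosome production, and CCND1 is a usual target of mitogen and adhesion signals.

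HOS cells in 4 groups were compared, with 3 libraries in each. For upCIN85, a plasmid with full-length CIN85 under a viral promoter was transfected and resistant cells were selected with geneticin as a pool, and for Mock the empty vector was used in the same way. For siCIN85, 3 different siRNAs against CIN85 were mixed, and for siNeg a non-targeting siRNA was used. Nothing in the labels says that the replicates came from separate cultures, so P-values measure the spread between these samples, which may be technical. Because the libraries are bulk RNA, a lower level in every cell and fewer cells with a high level cannot be told apart.

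SH3KBP1, the gene of CIN85, checked the labels. Its level was 77.5 ± 5.004 CPM (counts scaled to a common library size, mean ± SD, n = 3) for Mock and 81.3 ± 9.61 for upCIN85, against 85.1 ± 2.37 for siNeg and 7.54 ± 3.19 for siCIN85. Its log2 fold change (log2FC) was -3.51 in siCIN85 versus siNeg (adjusted P = 5.09e-08, edgeR) and 0.07 in upCIN85 versus Mock (adjusted P = 0.887, edgeR), so its counts were not detectably higher in the libraries labelled upCIN85. Whether 3′ tags of the plasmid transcript would be counted to SH3KBP1 was not tested, and upCIN85 here stands for the libraries with that label. The study examined CIN85 protein in the resistant pool by western blotting and describes the pool as overexpressing the full-length form. Protein was not measured in the data used here. Total counts per library ran from 3540641 to 6049458, and the 6 siRNA libraries were all shallower than the 6 plasmid libraries. All 8 mesenchymal and osteoblast markers had over 10 counts in every library, with a summed level of 1863 to 3242 CPM. None of 6 blood markers and none of 4 endothelial markers did so, at summed levels of 0.175 to 3.88 and 1.499 to 6.80 CPM, with the blood genes PTPRC, CD3E and LYZ at 3 counts or fewer. Of 6 epithelial markers, 3 had over 10 counts in every library, with a summed level of 272 to 359 CPM.

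After silencing of CIN85, CCND1 rose 1.66-fold. It was the only 1 of the 9 genes that passed edgeR's quasi-likelihood test at an adjusted P of 0.05, against 1.04% of all genes tested in the same comparison. The replicate numbers of siNeg and siCIN85 paired the libraries, and with the number as a block in that experiment 3 of 9 passed, against 3.42% of all genes. These were CCND1 and CDKN1A, which were higher, and CDKN2C, which was lower. In upCIN85 versus Mock none of the 9 passed, against 1.23% of all genes. Only 1 of them, RB1, had an unadjusted P under 0.05, against 14.5% of all genes. The median log2FC of the 9 genes was 0.23 in the knockdown and -0.05 in the overexpression, where the medians over all genes tested were -0.01 and 0.01. The 9 genes were chosen with earlier results of these data known, so the values of all genes are a description and not a test.

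**Figure D1:**
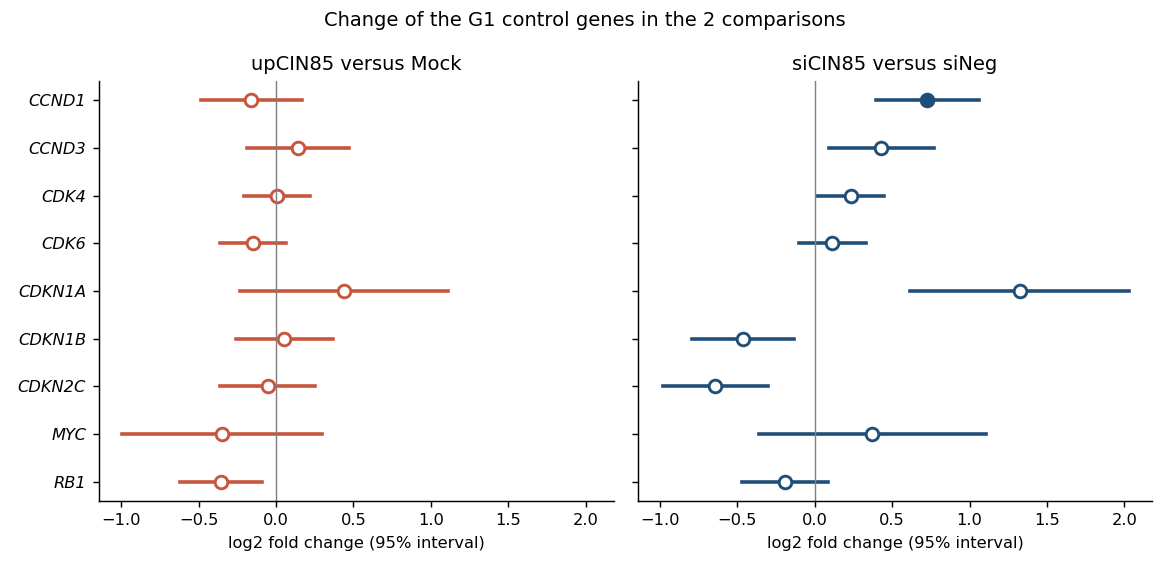
Log2 fold change of the 9 G1 control genes in upCIN85 versus Mock (left) and siCIN85 versus siNeg (right), from the edgeR fit of all 12 libraries without a block. Points are estimates, lines are 95% intervals, and a filled point has an adjusted P under 0.05, which is the case for CCND1 in the knockdown alone.

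CCND1 encodes cyclin D1 and lies on the forward strand of GRCh38 at chr11:69641087-69654474. Its levels in the 3 siNeg libraries were 204, 185 and 210 CPM, and in the 3 siCIN85 libraries 352, 301 and 338 CPM. Every silenced library was above every siNeg library, and the gap between the groups was wider than the range within either. The log2FC was 0.73 (SE 0.16, 95% interval 0.40 to 1.06, adjusted P = 0.0324, edgeR), and 0.73 with the siRNA experiment blocked (adjusted P = 0.0134). Within the same-numbered pairs the log2 ratio was 0.79, 0.70 and 0.69. The call was kept without siNeg replicate 3 (adjusted P = 0.0426, edgeR) or siCIN85 replicate 2 (adjusted P = 0.0251, edgeR) and lost without any of the other 4 siRNA libraries. When siNeg replicate 1, siNeg replicate 2, siCIN85 replicate 1 or siCIN85 replicate 3 was left out, the log2FC was 0.74, 0.66, 0.68 or 0.70 and the adjusted P from edgeR was 0.116, 0.171, 0.169 or 0.112. In these fits 17, 13, 9 or 14 of all genes passed, against 131 with every library.

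In the plasmid pools CCND1 stood at 256, 268 and 199 CPM in Mock and at 198, 282 and 167 CPM in upCIN85. The groups overlapped, since the highest and the lowest of these 6 libraries were both upCIN85. The log2FC was -0.16 (SE 0.15, 95% interval -0.48 to 0.17, adjusted P = 0.692, edgeR). The test of the difference between the overexpression and knockdown effects gave -0.89 for CCND1 (SE 0.22, adjusted P = 0.0643, edgeR), which missed the threshold without a block. None of the 9 genes passed this test, against 0.973% of all genes. With the siRNA experiment blocked CCND1 passed it (adjusted P = 0.0328, edgeR), 1 of 9 against 2.93% of all genes.

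CCND3, on the reverse strand at chr6:41934933-42050357, encodes cyclin D3. Its levels were 68.7, 64.5 and 84.6 CPM in siNeg and 99.99, 89.1 and 104 CPM in siCIN85. The groups did not overlap. The log2FC of 0.43 (SE 0.16, 95% interval 0.09 to 0.77) did not pass (adjusted P = 0.197 without and 0.121 with the siRNA experiment blocked, edgeR). In the plasmid pools CCND3 ranged from 69.8 to 87.3 CPM in Mock and from 71.3 to 107 CPM in upCIN85, with a log2FC of 0.14 (adjusted P = 0.735, edgeR).

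**Figure D2:**
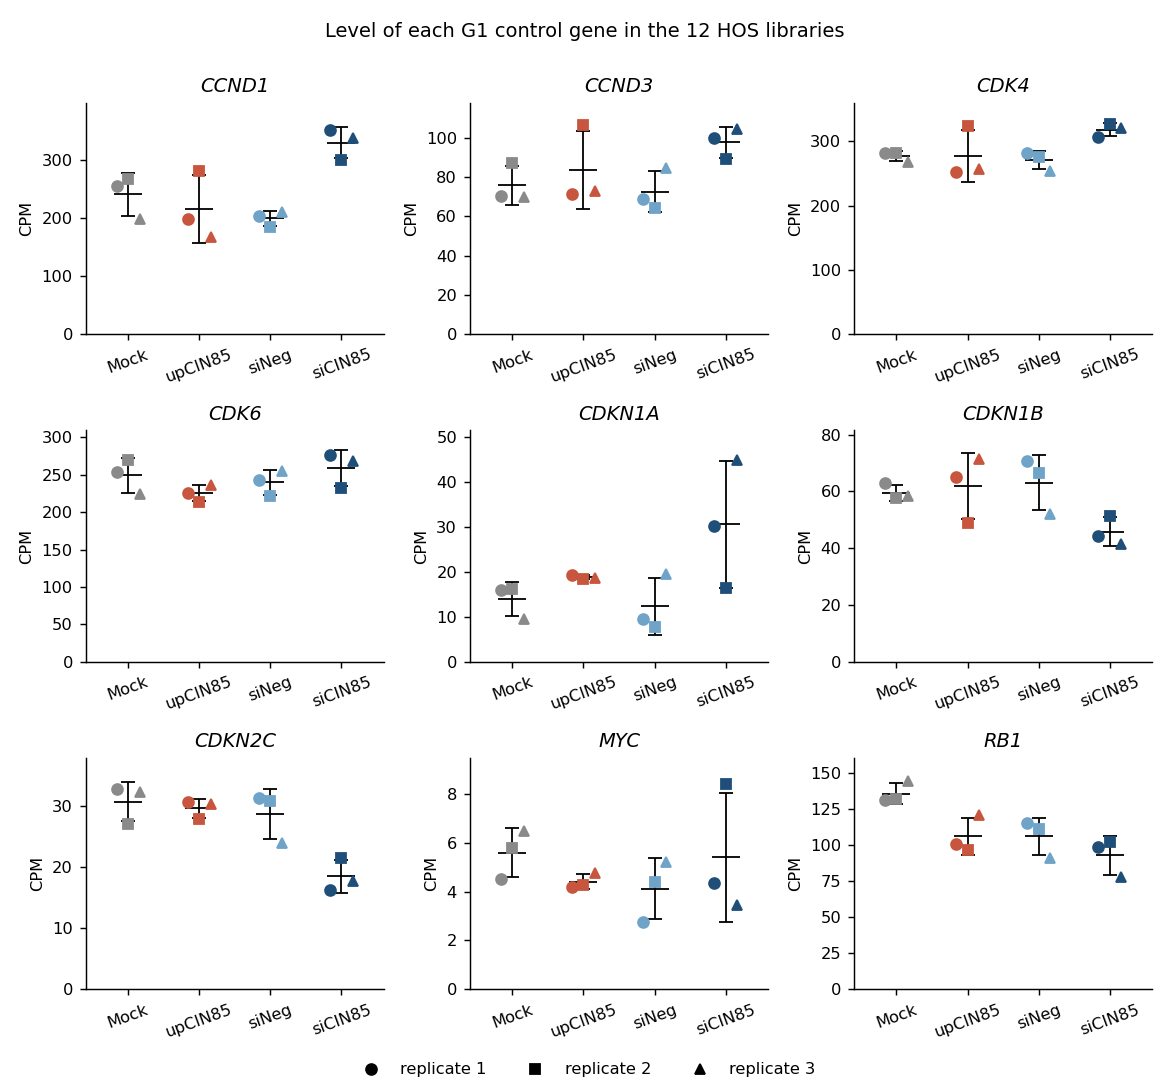
CPM (y axis, from 0) of each G1 control gene in the 12 libraries, by group on the x axis. Symbols mark replicate numbers, and horizontal bars with whiskers give the mean ± SD of 3 libraries. The silenced libraries lie apart from siNeg for CCND1, CCND3, CDK4, CDKN1B and CDKN2C, and RB1 is highest in Mock.

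Neither partner kinase passed in any comparison. CDK4, on the reverse strand at chr12:57747727-57756013, had 282, 276 and 255 CPM in siNeg and 307, 327 and 322 CPM in siCIN85. The silenced libraries were all higher, by a log2FC of 0.23 (SE 0.10, 95% interval 0.02 to 0.45) that did not pass the test (adjusted P = 0.276, edgeR). Its log2FC in upCIN85 versus Mock was 0.00 (95% interval -0.21 to 0.22, adjusted P = 0.990, edgeR). CDK6, on the reverse strand at chr7:92604921-92836594, ranged from 222 to 255 CPM in siNeg and from 232 to 277 CPM in siCIN85, and from 224 to 270 CPM in Mock and 214 to 237 CPM in upCIN85. Its groups overlapped in both comparisons, with log2FC of 0.11 (95% interval -0.10 to 0.33, adjusted P = 0.632, edgeR) and -0.15 (95% interval -0.36 to 0.07, adjusted P = 0.544, edgeR).

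The CDK inhibitors differed in direction in the silenced cells, with CDKN1A higher and CDKN2C lower under the block. CDKN1A encodes p21, a classical p53 target, and lies on the forward strand at chr6:36676460-36687339. It had 9.50, 7.82 and 19.5 CPM in siNeg and 30.1, 16.5 and 44.9 CPM in siCIN85, from 32 to 170 counts per library. The groups overlapped, because siNeg replicate 3 was above siCIN85 replicate 2, while within each same-numbered pair the silenced library was the higher. The log2 ratio within pairs was 1.66, 1.08 and 1.201. Without the pairing the log2FC of 1.32 (SE 0.33, 95% interval 0.62 to 2.03, a 2.50-fold higher level) missed the threshold (adjusted P = 0.0642, edgeR). With the siRNA experiment blocked CDKN1A rose by the same log2FC of 1.32 (SE 0.20, adjusted P = 0.0022, edgeR).

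In upCIN85 the level of CDKN1A was 19.2, 18.5 and 18.7 CPM, and in Mock it was 15.99, 16.1 and 9.47 CPM. The libraries labelled upCIN85 were all above Mock, but the log2FC of 0.44 (SE 0.32, 95% interval -0.23 to 1.11) did not pass (adjusted P = 0.567, edgeR). The effects in the overexpression and in the knockdown differed by -0.88 for CDKN1A, and this difference did not pass either (SE 0.46, adjusted P = 0.402, edgeR).

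CDKN2C, on the forward strand at chr1:50960745-50974633, was lower in the silenced cells. It had 31.2, 30.8 and 24.0 CPM in siNeg and 16.3, 21.4 and 17.7 CPM in siCIN85. All silenced libraries were below all siNeg libraries. The log2FC was -0.64 (SE 0.16, 95% interval -0.98 to -0.30, a 1.56-fold lower level), which missed the threshold (adjusted P = 0.0640, edgeR), and with the siRNA experiment blocked CDKN2C fell by 0.64 on the log2 scale (adjusted P = 0.0311, edgeR). In the plasmid pools it had 27.0 to 32.7 CPM in Mock and 27.8 to 30.6 CPM in upCIN85, with a log2FC of -0.05 (95% interval -0.36 to 0.25, adjusted P = 0.907, edgeR).

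CDKN1B, which encodes p27 at chr12:12715058-12722371 on the forward strand, had 70.7, 66.5 and 52.1 CPM in siNeg and 44.4, 51.5 and 41.5 CPM in siCIN85. The groups did not overlap, though siNeg replicate 3 and siCIN85 replicate 2 nearly met. Its log2FC of -0.46 (SE 0.16, 95% interval -0.79 to -0.14) did not pass without the block (adjusted P = 0.154) or with it (adjusted P = 0.0907, edgeR). In the plasmid pools it ranged from 57.5 to 62.8 CPM in Mock and from 48.9 to 71.6 CPM in upCIN85, with a log2FC of 0.05 (adjusted P = 0.907, edgeR).

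**Figure D3:**
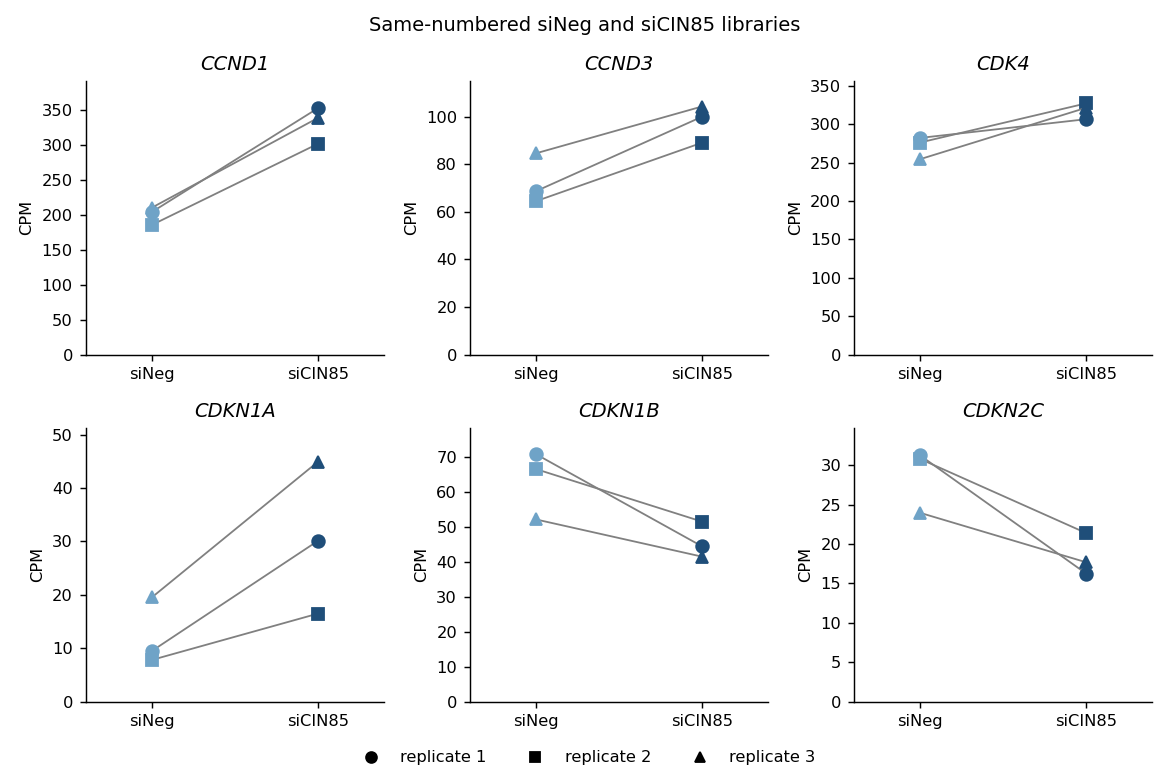
CPM (y axis, from 0) of 6 G1 control genes in the siNeg and siCIN85 libraries, with lines that join libraries of the same replicate number. CCND1, CCND3, CDK4 and CDKN1A go up and CDKN1B and CDKN2C go down within each of the 3 pairs, and CDKN1A starts from a different level in each.

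Sequences before a RefSeq start of CDKN1A and of CDKN2C are shown because these inhibitors moved in opposite directions under the block. Windows of 7 of the 9 genes were read from RefSeq on GRCh38.p14, not those of CCND1 and MYC. Each line is written 5′ to 3′ on the strand of the gene and stops where annotated untranslated sequence begins, and capitals mark exact matches on either strand to the GC box (GGGCGG) or the E-box (CACGTG).
CDKN1A, chr6:36678464-36678657, forward strand: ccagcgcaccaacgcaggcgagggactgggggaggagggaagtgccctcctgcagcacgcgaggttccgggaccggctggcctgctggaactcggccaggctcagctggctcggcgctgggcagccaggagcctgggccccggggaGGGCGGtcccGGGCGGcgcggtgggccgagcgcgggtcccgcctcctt
CDKN2C, chr1:50960495-50960744, forward strand: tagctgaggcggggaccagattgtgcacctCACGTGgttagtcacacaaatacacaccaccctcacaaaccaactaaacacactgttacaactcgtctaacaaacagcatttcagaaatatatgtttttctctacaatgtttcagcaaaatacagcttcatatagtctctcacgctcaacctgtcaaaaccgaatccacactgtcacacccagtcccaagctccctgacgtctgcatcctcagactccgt
The CDKN1A start lies within the GENCODE span of the gene. The 194 bases printed held 2 GC boxes, a motif found in 33.7% of all windows over the same stretch, and no E-box. The full window of 250 bases, with the 56 untranslated bases next to the start that are not printed, held 4 GC boxes. The 250 bases before the most upstream start of CDKN2C held 1 E-box, found in 6.32% of all 34943 windows, and no GC box. The windows of both other RefSeq starts of CDKN2C lie in untranslated sequence and are not printed. They held 5 GC boxes, and 1 GC box with 1 E-box and 1 CCAAT box. GC boxes were thus found before starts of both genes, and which start HOS cells use was not tested. Neither printed stretch held the CCAAT box (CCAAT), an E2F site (TTTCGCGC, TTTGGCGC or TTTCCCGC), the CRE (TGACGTCA) or a TATA box (TATAAA). A match describes letters and is not a bound site.

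Whether groups overlap can be set against all genes, as a description only, since the 9 genes were chosen with earlier results known. In siCIN85 versus siNeg the libraries of 5 of the 9 genes did not overlap (CCND1, CCND3, CDK4, CDKN1B and CDKN2C), against 20.2% of all genes tested. In upCIN85 versus Mock this held for 2 of the 9 (CDKN1A and RB1), against 20.7% of all genes, and in siNeg versus Mock for 1 (RB1), against 19.4%.

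RB1, on the forward strand at chr13:48303726-48599436, stood highest in Mock. The Mock libraries had 131, 132 and 145 CPM and the upCIN85 libraries 101, 96.7 and 121 CPM. The siNeg libraries had 115, 111 and 91.4 CPM and the siCIN85 libraries 98.8, 102 and 77.6 CPM. Every Mock library was above every other library. The log2FC was -0.35 in upCIN85 versus Mock (SE 0.13, 95% interval -0.62 to -0.09, adjusted P = 0.176, edgeR) and -0.19 in siCIN85 versus siNeg (SE 0.13, 95% interval -0.47 to 0.08, adjusted P = 0.496, edgeR), and neither passed without a block. With both experiments blocked, RB1 passed in upCIN85 versus Mock (log2FC -0.36, adjusted P = 0.0142, edgeR). In that fit 1035 of all genes passed, against 154 without a block.

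MYC was the gene with the fewest counts, 11 to 37 per library. It had 4.51, 5.77 and 6.49 CPM in Mock and 4.20, 4.25 and 4.76 CPM in upCIN85, with a log2FC of -0.35 (95% interval -0.99 to 0.30, adjusted P = 0.656, edgeR). In siNeg it had 2.75, 4.399 and 5.21 CPM and in siCIN85 4.37, 8.39 and 3.43 CPM. The groups overlapped in both comparisons, and the estimate in the knockdown, 0.37 (95% interval -0.36 to 1.104, adjusted P = 0.644, edgeR), rested on siCIN85 replicate 2, without which it was -0.08.

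The control groups differ in vector, selection, transfection and depth, which cannot be told apart here. In siNeg versus Mock none of the 9 genes passed, against 0.526% of all genes. RB1 had a log2FC of -0.36 (SE 0.13, adjusted P = 0.247, edgeR), and the other 8 genes lay between -0.44 (MYC) and 0.08 (CDKN1B). CCND1 was at -0.27 (95% interval -0.60 to 0.06, adjusted P = 0.499, edgeR). This comparison shares its libraries with the other 2.

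By DESeq2, the tool the study used, 3 of the 9 genes passed in siCIN85 versus siNeg, against 2.71% of the 11001 genes to which it gave an adjusted P. They were CCND1 (adjusted P = 0.0022, DESeq2), CDKN1A (adjusted P = 0.0093, DESeq2) and CDKN2C (adjusted P = 0.0355, DESeq2). With replicate numbers as a block in both experiments, including the plasmid pools, whose numbers were not taken as pairs, 5 of 9 passed in the knockdown against 7.72% of all genes.

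The rest of the G1 pathway was counted in 7 lists, from which the 9 genes are left out here. Among 11 other G1 cyclins, CDKs and their partners, none passed in either comparison, with a median log2FC of -0.05 in the knockdown and -0.11 in the overexpression. CDC37, a chaperone partner that loads CDK4 onto HSP90, had 0.43 in the knockdown (adjusted P = 0.107, edgeR). CCND2, the third D cyclin, had 14.7 ± 1.16 CPM in Mock and 6.97 ± 1.54 in upCIN85, with non-overlapping libraries and a log2FC of -1.08 that did not pass (adjusted P = 0.151, edgeR), although it did with the siRNA experiment blocked (adjusted P = 0.0039, edgeR). That block does not pair Mock with upCIN85 and acts there through the estimate of spread that all groups share. With it 545 of all genes passed in upCIN85 versus Mock, against 154 without it. CDK7, which activates other CDKs, had -0.37 in the same comparison (adjusted P = 0.172, edgeR).

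Of 3 other CDK inhibitors tested, none passed. CDKN3, a phosphatase that acts on CDK2, had -0.26 (adjusted P = 0.319, edgeR) and CDKN2D, or p19, had -0.25 (adjusted P = 0.465, edgeR) in upCIN85 versus Mock. In the knockdown CDKN3, given here after its values were seen, had -0.45 (adjusted P = 0.0741, edgeR) and fell with the siRNA experiment blocked (adjusted P = 0.0333, edgeR). No row of the count table matched CDKN2A or CDKN2B, so they were not tested.

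Among 16 other pocket proteins, E2F and DP factors, 1 passed in the knockdown. E2F7, an atypical E2F that represses E2F target genes, rose from 36.4 ± 5.56 CPM in siNeg to 57.7 ± 8.80 CPM in siCIN85 (log2FC 0.67, SE 0.15, adjusted P = 0.0444, edgeR). RBL1, or p107, a relative of RB1, had -0.68 (adjusted P = 0.0640, edgeR), and it fell with the siRNA experiment blocked (adjusted P = 0.0240, edgeR). In upCIN85 versus Mock none passed, and the DP subunits TFDP1 and TFDP2 had -0.37 (adjusted P = 0.110, edgeR) and 0.41 (adjusted P = 0.151, edgeR).

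None of 23 E2F target genes of the G1/S transition passed in either comparison. In the knockdown 17 of the 23 had a log2FC below 0, with a median of -0.13, where the median of all genes was -0.01. The 2 control groups differed in a like way, since 18 of the 23 were below 0 in siNeg versus Mock, with a median of -0.10. MCM6, a subunit of the replicative helicase, had -0.43 (adjusted P = 0.0964, edgeR) and RRM1, of ribonucleotide reductase, had -0.23 (adjusted P = 0.254, edgeR). In the overexpression 14 of the 23 were below 0 and the median was -0.06, with CCNE2, or cyclin E2, at -0.55 (adjusted P = 0.278, edgeR) and E2F1 at -0.33 (adjusted P = 0.3798, edgeR).

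Of 23 other p53 target genes tested, none passed in either comparison, and 16 of them had a log2FC above 0 in the knockdown, with a median of 0.12. AEN, a nuclease of apoptosis, had 92.1 ± 8.15 CPM in siNeg and 161 ± 41.4 in siCIN85 (log2FC 0.81, adjusted P = 0.0603, edgeR), and rose with the siRNA experiment blocked (adjusted P = 0.0169, edgeR). In upCIN85 versus Mock the median was 0.01. SESN2, a stress-induced sestrin, had 1.03 (adjusted P = 0.0510, edgeR) there and passed with the siRNA experiment blocked (adjusted P = 0.0182, edgeR). Its level was 25.7 ± 2.84 CPM in Mock and 52.5 ± 22.6 in upCIN85. The groups overlapped, since the lowest upCIN85 library, at 26.4 CPM, lay within the Mock range of 22.6 to 28.2 CPM. CCNG1, or cyclin G1, had -0.49 in the same comparison (adjusted P = 0.157, edgeR).

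Around MYC, none of 11 other network factors passed in either comparison. MXD3, a MAX partner that represses E-box genes, had -1.14 in the knockdown (adjusted P = 0.0993, edgeR) from 9 to 43 counts per library in siNeg and siCIN85, and passed with the siRNA experiment blocked (adjusted P = 0.0409, edgeR). ZBTB17, or MIZ1, had 0.47 (adjusted P = 0.227, edgeR). In the overexpression MXD1 had -0.58 (adjusted P = 0.111, edgeR) and MLX -0.60 (adjusted P = 0.127, edgeR). Of 21 other growth genes that MYC is known to drive, none passed, and 17 had a log2FC above 0 in the knockdown, with a median of 0.17. NOP16, a nucleolar protein, had 0.46 (adjusted P = 0.0856, edgeR; 0.0459 with the siRNA experiment blocked), and POLR1B, of RNA polymerase I, had 0.36 (adjusted P = 0.150, edgeR). In the overexpression the median was 0.09, with SRM, or spermidine synthase, at 0.27 (adjusted P = 0.371, edgeR) and FBL, or fibrillarin, at 0.17 (adjusted P = 0.430, edgeR).

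**Figure D4:**
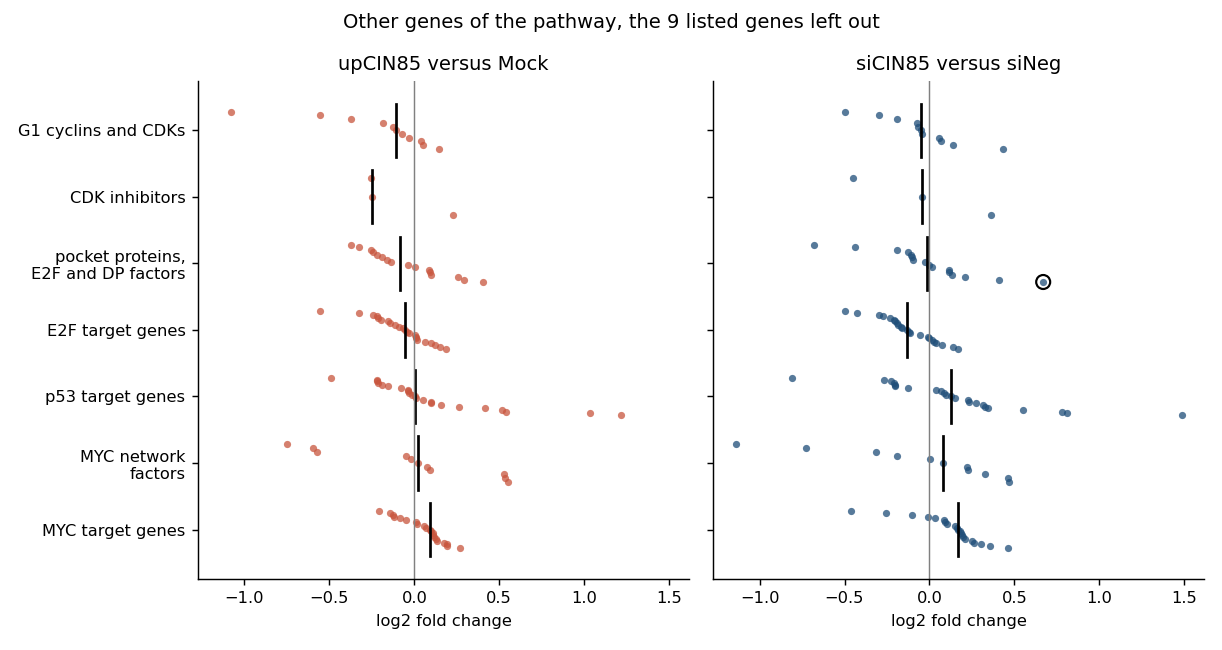
Log2 fold change (x axis) of the other genes in the 7 pathway lists (rows) in upCIN85 versus Mock (left) and siCIN85 versus siNeg (right). Each point is 1 gene tested, black bars are list medians, and a ring marks an adjusted P under 0.05, which only E2F7 in the knockdown has. Some genes belong to more than 1 list.

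Genes next to the members can share reads, and the strand setting of the counting was not given in the sources used here. LTO1 overlaps CCND1 on the opposite strand and had 60.3 to 97.4 CPM, with a log2FC of 0.29 in the knockdown (adjusted P = 0.289, edgeR). TSPAN31 overlaps CDK4 on the opposite strand at 2.62 to 11.2 CPM. Its log2FC was -0.69 in the knockdown (adjusted P = 0.157, edgeR) and -0.98 in upCIN85 versus Mock (adjusted P = 0.0563, edgeR). MARCH9, which overlaps CDK4, AC008115.3, which overlaps CDKN1B, and RCBTB2, which overlaps RB1, did not pass in either comparison. Over the 12 libraries, the genes whose centred log2 CPM followed CCND1 most closely were TOLLIP and C11orf95, with root mean square differences of 0.13 for both, where the SD of CCND1 itself was 0.36. Their log2FC in the knockdown was 0.50 (adjusted P = 0.176, edgeR) for TOLLIP and 0.54 (adjusted P = 0.141, edgeR) for C11orf95.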

How the data were processed

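RNA-seq covered 12 HOS libraries prepared with QuantSeq, which tags transcript 3′ ends and carries unique molecular identifiers. According to the submitters' processing notes the tools were FastQC, cutadapt 4.3, STAR 2.7.3a, Picard 2.25.6, MultiQC 1.10.1 and featureCounts (Subread 2.0) on GRCh38. The annotation, strand setting and collapsing of identifiers were not given in the sources used here. The authors deposited raw gene counts without normalization. Such counts reflect transcript 3′ ends, so levels were compared between samples and not between genes.

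Gene names came from GENCODE 29, in which 95 identifiers had no match. Counts were tested in R 4.3.3 with edgeR 4.0.16 (filterByExpr, minimum count 10 and minimum total 15, TMM, quasi-likelihood fit of all 12 libraries), with two-sided P-values adjusted by Benjamini-Hochberg over 12542 genes and a threshold of 0.05. CPM were TMM-normalized. An exact permutation test of 3 against 3 libraries cannot go below 0.1. The method was tested on simulated data, and no library was a duplicate of another library of its group.

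Groups and replicate numbers came from the labels. Deviations from group means correlated across genes between same-numbered siNeg and siCIN85 libraries (r = 0.353, 0.269 and 0.446), so these numbers pair the samples. In Mock and upCIN85 the same-numbered r were 0.326, 0.227 and 0.0989, and r between different numbers ran from -0.298 to 0.0303. Because the lowest same-numbered r was 0.0989, these numbers were not taken as pairs, though a weaker pairing is possible. Alternatives were the replicate block, DESeq2 1.42.0, RLE normalization, other filters on low counts, a log2FC cutoff of 0.59, thinning to 3540641 counts, fitting only the libraries compared, and leaving out each library.

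The 9 genes, the 7 lists and the tests were chosen with earlier results of these data known. Genes named from a list were those past the threshold and the 2 with the smallest P in each comparison, the 9 genes included, and for CCND1, the only gene called, the 2 genes most alike over the libraries. Promoter windows were RefSeq sequences of GRCh38.p14.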

Additional observations from a re-analysis of the deposited data

How the results depend on the processing

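Without a block, 1 of the 9 genes (CCND1) passed in siCIN85 versus siNeg. The count was 3 with no filter on low counts, with DESeq2 and with the replicate block in the siRNA experiment alone, each time CCND1, CDKN1A and CDKN2C, and 5 with the block in both experiments, which added CCND3 and CDKN1B. With 1 library left out it ran from 0 to 3: 0 without siNeg replicate 1 or 2 or siCIN85 replicate 1 or 3, and 3 without siNeg replicate 3 or siCIN85 replicate 2. The number of all genes called moved as well, from 131 without a block. It was 617 with no filter, 298 with DESeq2, and 429 and 968 with the block in the siRNA experiment and in both. In the leave-out fits with 0 it was 17, 13, 9 and 14, in the order given, and in those with 3 it was 189 and 362. Without replicate 1 of both siRNA groups, an alternative added after seeing the data, 0 of the 9 genes and 6 of all genes passed. There CCND1 had a log2FC of 0.69 (adjusted P = 0.377, edgeR). In upCIN85 versus Mock and in siNeg versus Mock the count of 0 became 1 (RB1) with the block in both experiments. For the difference between both effects the count of 0 became 1 (CCND1) with no filter, DESeq2 or the block in the siRNA experiment alone, 2 (CCND1 and CDKN1A) with the block in both, and 0 to 1 with a library left out (1 without upCIN85 replicate 2). The cause of these changes was not tested. Unadjusted P under 0.05 was reached by 1, 6, 1 and 3 of the 9 genes in upCIN85 versus Mock, siCIN85 versus siNeg, siNeg versus Mock and the difference. The shares of all genes were 14.5%, 15.7%, 12.4% and 14.5%, in the same order. The numbers of Mock and upCIN85 were not taken as pairs, so calls that rest on blocking them are given only as alternatives.

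CCND1 in the knockdown kept its direction in all 21 alternatives, from 0.66 to 0.78, and passed in 16. CDKN1A (0.93 to 1.81) and CDKN2C (-0.77 to -0.49) kept theirs and each passed in 6. The 21 include fits without a Mock or upCIN85 library, which is not part of this comparison, and CCND1 passed in all of those. When a single siRNA library was left out, CCND1 passed only without siNeg replicate 3 or siCIN85 replicate 2. Signs turned only for estimates that did not pass. In upCIN85 versus Mock with a library left out, CCND3 ran from -0.0728 to 0.251, CDK4 from -0.122 to 0.0655 and CDKN1B from -0.0680 to 0.199. CDK4 was also at -0.00275 with no filter, -0.00409 with the block in both experiments and -0.0106 after thinning. MYC in the knockdown ran from -0.0836 to 0.601. In siNeg versus Mock the ranges were -0.182 to 0.0510 for CCND3, -0.0630 to 0.0156 for CDK4, -0.129 to 0.00303 for CDK6, -0.673 to 0.0708 for CDKN1A, -0.00635 to 0.208 for CDKN1B and -0.181 to 0.0207 for CDKN2C. MYC had the fewest counts of the 9 genes, 11 to 37 per library.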
